A study of Mus musculus with 8 samples.

Results

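Genes of the adrenergic receptor and cAMP signalling chain were examined in brown adipose tissue (BAT) of mice with cancer-associated cachexia. The chain was defined by 9 gene names out of the 56953 genes counted, namely Adrb1, Adrb3, Adra1a, Gnas, Adcy3, Prkaca, Prkar2b, Pde3b and Pde4d. The comparison asks whether the transcripts through which BAT receives and passes on the sympathetic signal differ in abundance between cachectic and control mice. Wild-type C57BL/6J mice, male or female and 8 to 10 weeks old, formed both groups. CAC mice (n = 4) received 3000000 LLC cells, a Lewis lung carcinoma line, in 100 μl PBS under the skin of the right flank, and CTR mice (n = 4) received PBS alone. Mice were housed at 21 °C and followed for 21 days, and the study kept only those animals in the tumour group in which a tumour grew. The sex of each mouse is not given in the labels, so it could not enter the comparison.

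Sympathetic nerve endings in BAT release noradrenaline, which acts on β-adrenergic receptors of the brown adipocyte. These receptors are coupled to the stimulatory G protein Gαs, which activates adenylyl cyclase and so raises cyclic AMP. Cyclic AMP frees the catalytic subunits of protein kinase A (PKA) from its regulatory subunits, and PKA phosphorylates proteins of the lipid droplet, which releases fatty acids for uncoupled respiration, and the transcription factor CREB. Phosphodiesterases degrade cyclic AMP and end the signal, while α1-adrenergic receptors act through Gq and calcium.

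BAT RNA was sequenced with 1 library per mouse, and total counts ran from 2454493 to 4827956 per library in CTR and from 1823167 to 3392538 in CAC. Levels are given as CPM, that is counts scaled to a shared library size with TMM factors, on which 3 counts correspond to 0.661 to 1.62 CPM, and such limits cover counting error only. Counts are not corrected for gene length, so levels are compared between mice and not between genes. All 9 genes passed the filter on low counts and were among the 9876 genes tested by edgeR's quasi-likelihood test. The tissue label was checked against markers of brown adipocytes such as Ucp1, Cidea and Plin1. Their summed level was 18279 to 20207 CPM in CTR and 17459 to 19902 CPM in CAC, with 10 of 10 markers tested and 0 passing an adjusted p of 0.05. Markers of some other cell types differed with the group. The summed neutrophil markers were at 11.5 to 15.2 CPM in CTR and 170.5 to 437.9 CPM in CAC, with 3 of 4 tested genes called higher. The 7 genes of this list include S100a8 and S100a9. The paper proposes that most S100A9 secreted by CAC BAT comes from brown adipocytes. It found no significant difference in neutrophil numbers, and the sum does not count neutrophils. The macrophage markers summed to 195.0 to 215.9 CPM in CTR and 270.1 to 368.9 CPM in CAC, with 2 of 6 called higher. Skeletal muscle markers summed to 1231 to 3043 CPM in CTR and 2650 to 4957 CPM in CAC, with 10 of 10 higher in mean and 0 called, and erythroid markers to 6180 to 19266 and 14631 to 44312 CPM, with 5 of 5 higher and 0 called. Of the endothelial markers 1 of 6 tested was called higher, while their sums overlapped (288.8 to 369.1 CPM in CTR and 272.6 to 353.6 CPM in CAC), and of the Schwann cell, smooth muscle and fibroblast markers 0 were called. In whole tissue, fewer cells of a type and less RNA per cell cannot be told apart, and the part of these cell types in the values below was not tested.

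None of the 9 signalling genes passed an adjusted p of 0.05. The β1-adrenergic receptor Adrb1 and the PKA catalytic subunit Prkaca had lower means in CAC, the cyclase Adcy3 and the phosphodiesterase Pde3b had higher means, and the CTR and CAC libraries overlapped for all 9 genes. The largest difference, that of Adrb1, was -0.55 on the log2 scale. With edgeR and p-values adjusted over all 9876 genes by the Benjamini-Hochberg method, 0 of 9 were called, against 0.932% of all genes tested (0.739% higher and 0.192% lower in CAC). DESeq2 and limma also called 0 of 9. At an unadjusted p below 0.05, 2 of 9 genes (22.2%), both lower in CAC, stood against 12.9% of all genes tested (7.01% higher and 5.93% lower), and 1 gene fewer would have given 11.1%. The median log2 fold change of the 9 was 0.11, with 5 higher and 4 lower, and across all genes tested 4935 were higher and 4941 lower. CAC libraries lay wholly below the CTR libraries for 3.4% and wholly above them for 3.64% of all genes tested, and for 0 of the 9.

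**Figure D1:**
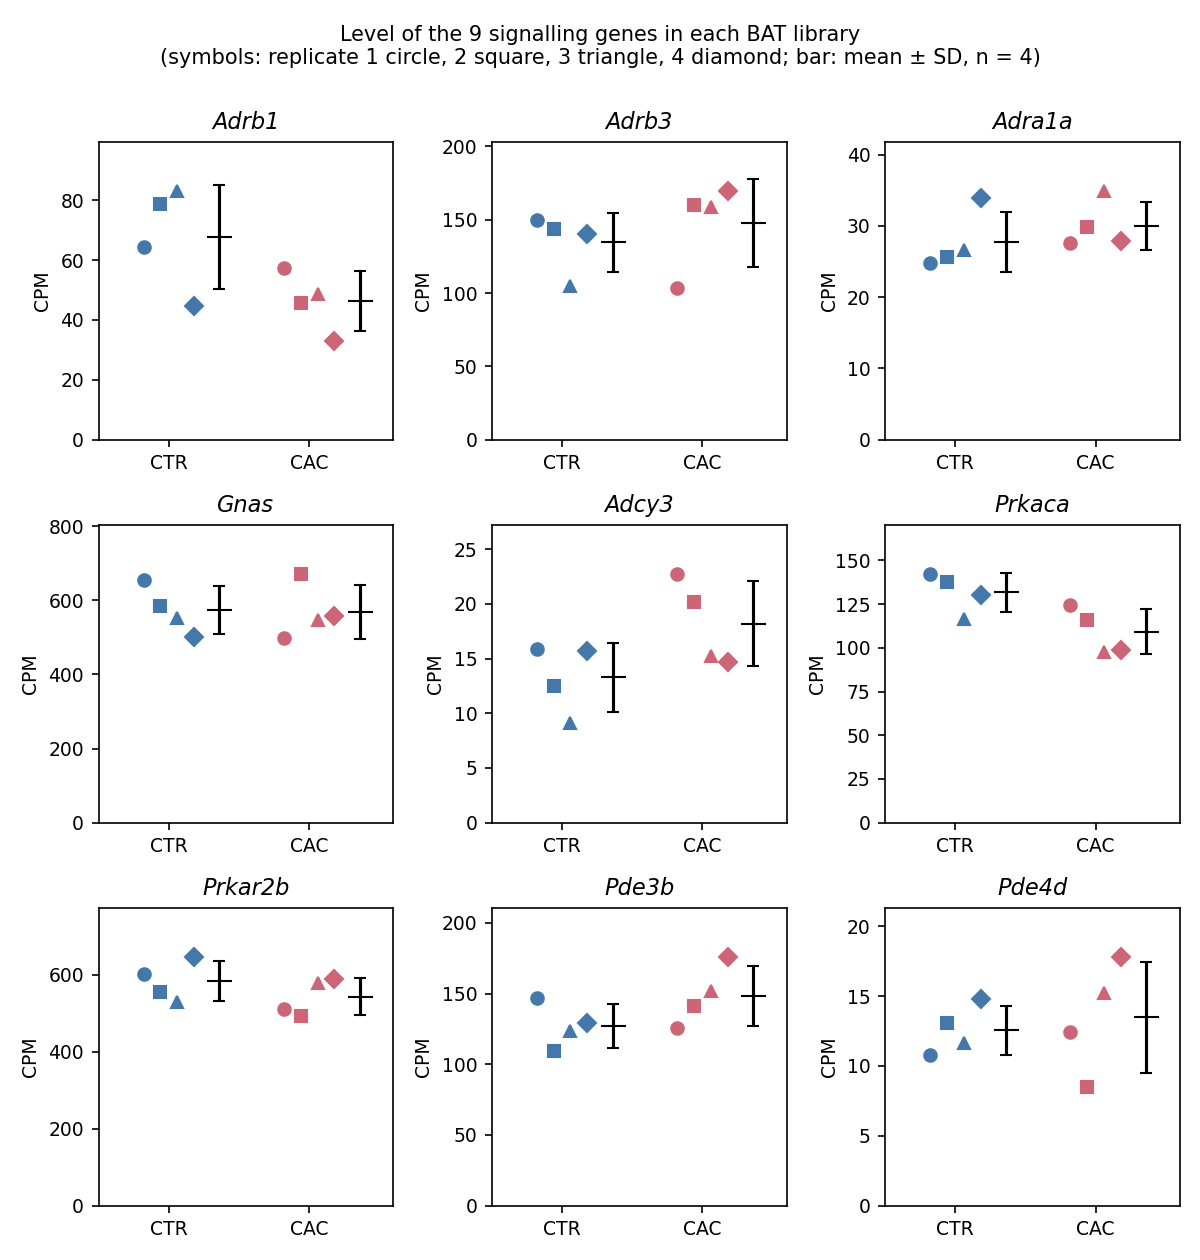
CPM (vertical axis, from 0) of the 9 signalling genes in the 4 CTR and 4 CAC libraries, with replicate numbers as symbols and the mean ± SD (n = 4) as a bar. Adrb1 ran from 44.5 to 83.0 CPM in CTR and from 33.1 to 57.3 CPM in CAC, and the points of the groups overlap in all 9 panels.

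Adrb1 encodes the β1-adrenergic receptor and lies on the plus strand of GRCm38 at chr19:56722199-56733113. It was at 64.4, 78.6, 83.0 and 44.5 CPM in CTR replicates 1 to 4 and at 57.3, 45.7, 48.6 and 33.1 CPM in CAC replicates 1 to 4. CTR replicate 4 alone lay among the CAC values, below 3 of them, and the other CTR libraries lay above all CAC libraries. CTR averaged 67.6 ± 17.3 CPM (SD, n = 4) and CAC 46.2 ± 10.0 CPM, which gave a log2 fold change of -0.55 (SE 0.21, 95% interval -0.997 to -0.10), or a difference of -31.7% with an interval from -49.9% to -6.89%. The difference had an unadjusted p of 0.0200 and an adjusted p of 0.277 in edgeR's quasi-likelihood test, and an exact two-sided permutation test of the CPM gave p = 0.114, where 0.0286 is the smallest that 70 assignments of the libraries allow. Without CTR replicate 4 the log2 fold change was -0.71 and the edgeR adjusted p 0.0282, whereas the fits that left out any other library gave adjusted p-values up to 0.520. With genes of low counts kept in the fit, the edgeR adjusted p was 0.00287, and with the replicate numbers fitted as a block it was 0.0459. The sign of the difference was the same in all 18 alternative settings.

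Adrb3 encodes the β3-adrenergic receptor, the adrenergic receptor most restricted to adipocytes in mice, and lies on the minus strand at chr8:27225776-27250616. It was at 149.7, 143.6, 104.6 and 140.2 CPM in CTR and at 103.2, 160.1, 158.8 and 169.4 CPM in CAC. CAC replicate 1 stood apart from the other CAC libraries and close to CTR replicate 3, while CAC replicates 2, 3 and 4 lay above all CTR libraries. CAC differed from CTR by 0.14 on the log2 scale (SE 0.14, 95% interval -0.16 to 0.44, edgeR adjusted p = 0.747), so that differences from -10.8% to 35.9% remain inside the interval. With 1 library left out it ran from 0.04 without CTR replicate 3 and 0.07 without CAC replicate 4 to 0.28 without CAC replicate 1, with edgeR adjusted p-values from 0.302 to 0.958. The antisense gene Gm45470 shares 839 exonic bases with Adrb3, and its count was 3.74% to 11.7% of that of Adrb3. In counts, the ratio of Adrb3 to Adrb1 was 1.26 to 3.15 in the CTR libraries and 1.80 to 5.12 in the CAC libraries. CAC replicate 1, at 1.80, lay within the CTR range, and CAC replicates 2, 3 and 4, at 3.50, 3.27 and 5.12, lay above it.

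Adra1a encodes the α1A-adrenergic receptor, which couples to Gq, and lies on the plus strand at chr14:66635251-66771168. It was at 24.8, 25.6, 26.6 and 34.0 CPM in CTR and at 27.6, 29.8, 34.9 and 27.9 CPM in CAC. The highest library of each group was close to that of the other, and 3 CTR libraries lay below all CAC libraries. On the log2 scale the difference of CAC from CTR was 0.11 (SE 0.15, 95% interval -0.19 to 0.42, edgeR adjusted p = 0.810), and with 1 library left out it ran from 0.02 without CAC replicate 3 to 0.25 without CTR replicate 4. Of the 5 other adrenergic receptor genes listed, 0 reached the filter. Adra1b had at most 6 counts in a library, Adra2b and Adra2c at most 2, Adra2a at most 1, and Adra1d had 0 in every library, which allows up to 0.661 to 1.62 CPM per library.

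Gnas encodes Gαs, which links the β-adrenergic receptors to the cyclase, and lies on the plus strand at chr2:174284320-174346744. It was at 654.9, 584.3, 552.7 and 502.0 CPM in CTR and at 497.9, 670.6, 546.8 and 557.1 CPM in CAC. The ranges of the groups nearly coincide. Its log2 fold change was -0.01 (SE 0.11, 95% interval -0.23 to 0.21, edgeR adjusted p = 0.974), an interval from -14.9% to 15.3%, and its sign turned in 4 of the 8 fits that left out a library. Gm20721 lies on the opposite strand and shares 1469 exonic bases with Gnas (13.1% of the Gnas exons), and its count was 86.2% to 95.4% of the Gnas count in the 8 libraries. Nespas on the opposite strand shares a further 8.83% of the exonic bases. Whether reads were counted by strand is not given in the sources used here, so reads of Gnas and of these genes cannot be told apart.

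Adcy3 encodes adenylyl cyclase 3, which makes cyclic AMP from ATP, and lies on the plus strand at chr12:4133103-4213525. It was at 15.8, 12.5, 9.13 and 15.7 CPM in CTR and at 22.7, 20.2, 15.2 and 14.6 CPM in CAC. CAC replicates 1 and 2 lay above all CTR libraries, and CAC replicates 3 and 4 lay within the CTR range. The means were 13.3 ± 3.16 CPM (SD, n = 4) and 18.2 ± 3.91 CPM, a log2 fold change of 0.40 (SE 0.20, 95% interval -0.03 to 0.82) with an unadjusted p of 0.0646 and an adjusted p of 0.422 in edgeR's quasi-likelihood test. The interval spans differences from -1.81% to 76.6%. Cenpo, a centromere protein gene on the opposite strand, shares 1380 exonic bases with Adcy3 (22.1% of its exons), and its count was 91% to 117% of that of Adcy3, so that reads of these genes cannot be told apart either. The ratio of Gnas to Adcy3 counts was 32.1 to 60.5 in CTR and 21.9 to 38.0 in CAC.

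Prkaca encodes the catalytic subunit Cα of PKA and lies on the plus strand at chr8:83972993-83996443. It was at 142.1, 138.0, 116.6 and 130.1 CPM in CTR and at 124.3, 115.9, 97.9 and 99.0 CPM in CAC. Only CTR replicate 3 and CAC replicate 1 crossed the gap between the groups, CTR replicate 3 lying below CAC replicate 1 and just above CAC replicate 2. The means were 131.7 ± 11.2 CPM (SD, n = 4) and 109.3 ± 13.0 CPM, a log2 fold change of -0.28 (SE 0.11, 95% interval -0.51 to -0.04), which is a difference of -17.4% with an interval from -29.6% to -3.02%. The unadjusted p was 0.0218 and the adjusted p 0.282 in edgeR's quasi-likelihood test, and the exact permutation test of the CPM gave p = 0.0571. No fit that left out a library called Prkaca, with edgeR adjusted p-values from 0.168 to 0.536. Another gene, ENSMUSG00000120736, had a count equal to 94.7% to 99.6% of that of Prkaca in each library. Its position is not in the annotation used here, so whether it shares reads with Prkaca could not be checked.

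Prkar2b encodes RIIβ, the regulatory subunit of PKA that predominates in adipose tissue, and lies on the minus strand at chr12:31958476-32061296. It was at 601.7, 556.1, 528.7 and 645.6 CPM in CTR and at 511.4, 492.4, 579.0 and 589.5 CPM in CAC. CAC replicates 1 and 2 lay below all CTR libraries and the other CAC libraries lay among them. Its log2 fold change was -0.10 (SE 0.10, 95% interval -0.30 to 0.10, edgeR adjusted p = 0.717), an interval from -18.9% to 7.09%, and it ran from -0.15 without CTR replicate 3 to -0.04 without CTR replicate 4. The ratio of Prkar2b to Prkaca counts, a regulatory over a catalytic subunit, averaged 4.44 ± 0.405 (SD, n = 4) over CTR and 5.06 ± 1.01 over CAC. In CAC replicates 3 and 4 it reached 5.92 and 5.95, above the CTR range of 4.03 to 4.96, whereas CAC replicates 1 and 2 were at 4.11 and 4.25.

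Pde3b encodes the phosphodiesterase through which insulin lowers cyclic AMP in adipocytes, and lies on the plus strand at chr7:114415281-114539251. It was at 147.2, 109.2, 123.2 and 129.2 CPM in CTR and at 125.4, 140.9, 151.5 and 175.7 CPM in CAC. CAC replicates 3 and 4 lay above all CTR libraries, and CTR replicate 1 was higher than CAC replicates 1 and 2. The log2 fold change was 0.23 (SE 0.12, 95% interval -0.02 to 0.47) with an unadjusted p of 0.0688 and an adjusted p of 0.430 in edgeR's quasi-likelihood test, and with 1 library left out the fold change ran from 0.14 without CAC replicate 4 to 0.30 without CAC replicate 1.

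Pde4d encodes a phosphodiesterase specific for cyclic AMP that is known to associate with β-adrenergic receptor complexes, and lies on the plus strand at chr13:108449948-109953461. It was at 10.8, 13.1, 11.6 and 14.8 CPM in CTR and at 12.4, 8.51, 15.2 and 17.8 CPM in CAC. The CAC libraries spread to both sides of the CTR libraries. Its log2 fold change was 0.13 (SE 0.21, 95% interval -0.31 to 0.56, edgeR adjusted p = 0.862), and it ran from -0.03 without CAC replicate 4 to 0.27 without CAC replicate 2. The ratio of Pde3b to Pde4d counts overlapped between CTR, at 8.37 to 13.6, and CAC, at 9.88 to 16.6.

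**Figure D2:**
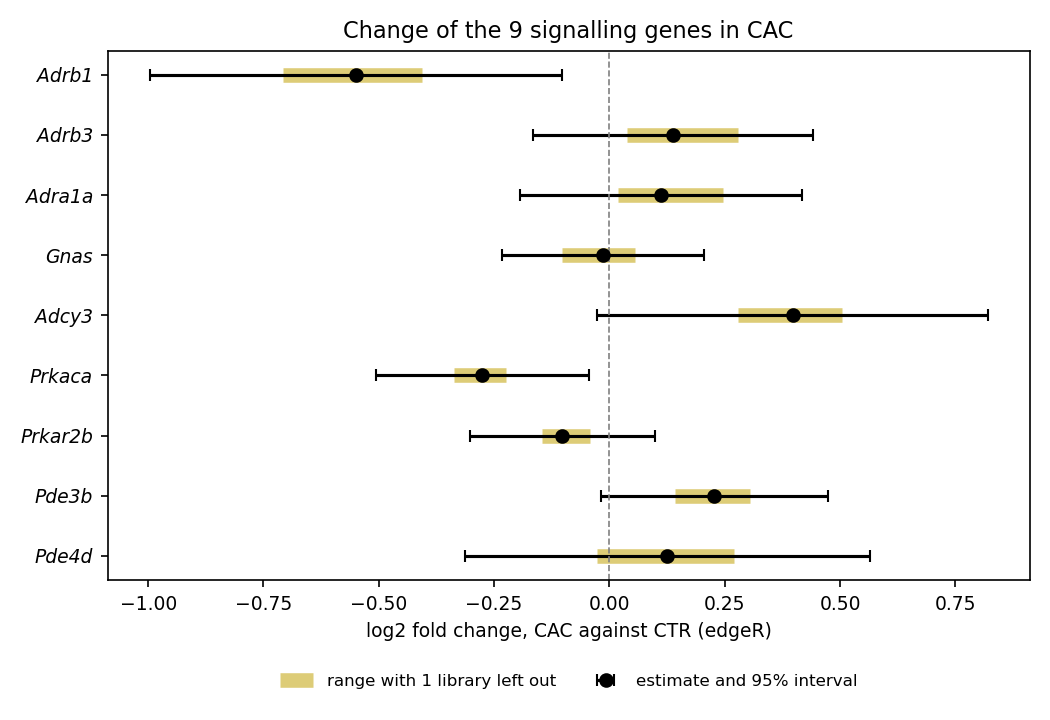
log2 fold change of CAC against CTR (horizontal axis) with the 95% interval of edgeR for each signalling gene, and as a band the range of the estimate when 1 library was left out. The intervals of Adrb1 (-0.997 to -0.10) and Prkaca (-0.51 to -0.04) lie below 0, those of the other 7 genes include it, and the bands of Gnas and Pde4d cross it.

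The other genes of the pathway were described from 13 lists with 132 genes, of which 131 were in the count table and 73 passed the filter. Of these 73, 2 rose and 1 fell in CAC (4.11%, against 0.932% of all genes tested), and 9 (12.3%, against 12.9%) had an unadjusted p below 0.05 in edgeR's test. The lists were chosen with earlier results of these data known, so their shares are a description only. The median log2 fold change was 0.06, with 45 genes higher and 28 lower. The genes called were Ptger3, which fell, and Ppargc1a and Per1, which rose.

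Among the 19 listed receptors of adipocytes that couple to Gs or Gi, 7 were tested, 1 fell and 6 did not pass. The 1 gene is 14.3% of those tested, against 0.192% of all genes tested called lower. The median log2 fold change of the 7 was -0.17. The prostaglandin E receptor EP3, encoded by Ptger3, couples to Gi and inhibits the cyclase. It was at 51.5, 53.0, 41.9 and 38.4 CPM in CTR and at 31.4, 34.6, 22.9 and 22.7 CPM in CAC. Every CAC library lay below every CTR library. The means were 46.2 ± 7.16 CPM (SD, n = 4) and 27.9 ± 6.03 CPM, and the log2 fold change was -0.76 (SE 0.16, edgeR adjusted p = 0.0190). Its edgeR adjusted p went past the threshold, to 0.0800, 0.0738, 0.0880 and 0.0752, without CTR replicate 1, CTR replicate 2, CAC replicate 3 or CAC replicate 4, while the log2 fold change stayed between -0.87 and -0.66. The adenosine A1 receptor Adora1, also coupled to Gi, was at 168.3 ± 11.2 and 154.7 ± 26.6 CPM (edgeR adjusted p = 0.701) and the lactate receptor Hcar1 at 24.2 ± 4.48 and 20.9 ± 3.49 CPM (edgeR adjusted p = 0.738).

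Of the other G alpha proteins and their chaperones, listed together with the G protein regulator Rgs2, 9 of 11 genes were tested and 0 were called. Of the 9, 2 had an unadjusted p below 0.05 in edgeR's test. Gna11, a Gq-family subunit, had the smallest p. Its 4 CAC libraries, at 44.9 to 51.9 CPM, lay below its CTR libraries, at 54.2 to 63.7 CPM, for a difference of -0.28 on the log2 scale (edgeR adjusted p = 0.283). Of the receptor kinases and arrestins, which switch receptors off, 6 of 7 were tested and 0 called, with 0 at an unadjusted p below 0.05, and Grk5 was lowest in p with 9.53 ± 1.24 and 7.43 ± 1.11 CPM (edgeR adjusted p = 0.514).

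Of the 9 other adenylyl cyclases 4 passed the filter and 0 were called. Adcy4 had the smallest p, with 15.7 ± 4.13 CPM in CTR against 22.4 ± 1.63 CPM in CAC and a log2 fold change of 0.52 (unadjusted p = 0.00823 and adjusted p = 0.191 in edgeR's test). The 5 tested PKA subunits and inhibitors beside Prkaca and Prkar2b had a median log2 fold change of 0.30 and 0 calls. Pkia encodes a small protein that blocks the catalytic subunit of PKA. It was at 21.2, 22.1, 29.9 and 13.9 CPM in CTR and at 29.7, 33.5, 36.0 and 36.3 CPM in CAC. Only CAC replicate 1 and CTR replicate 3 overlapped, by a small margin, and the log2 fold change was 0.68 (SE 0.18, unadjusted p = 0.00112 and adjusted p = 0.0764 in edgeR's test). With genes of low counts kept in the fit its edgeR adjusted p was 0.00431, and without CTR replicate 3 it was 0.0154, at a log2 fold change of 0.85. Pkia is also known from skeletal muscle, whose markers had higher sums in 3 of the 4 CAC libraries than in any CTR library, and its part in the Pkia values was not tested. The catalytic subunit Prkacb was at 39.2 ± 4.49 and 43.6 ± 6.17 CPM (edgeR adjusted p = 0.664) and the regulatory subunit Prkar1a at 109.7 ± 8.53 and 101.1 ± 5.87 CPM (edgeR adjusted p = 0.699).

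Of the A-kinase anchoring proteins, which hold PKA near its substrates, 9 of 14 were tested and 0 called, and Akap13 had the smallest p, with 46.0 ± 5.77 and 55.9 ± 5.18 CPM (edgeR adjusted p = 0.342). Of the other phosphodiesterases, 5 of 15 were tested and 0 called. Pde8a, specific for cyclic AMP, had the smallest p there, with 12.5 ± 1.87 and 15.4 ± 2.79 CPM (edgeR adjusted p = 0.578). The cyclic AMP sensor Epac1, encoded by Rapgef3, was at 17.2 ± 3.40 and 22.9 ± 5.35 CPM (edgeR adjusted p = 0.426), 1 of 2 tested genes of its list and not called.

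**Figure D3:**
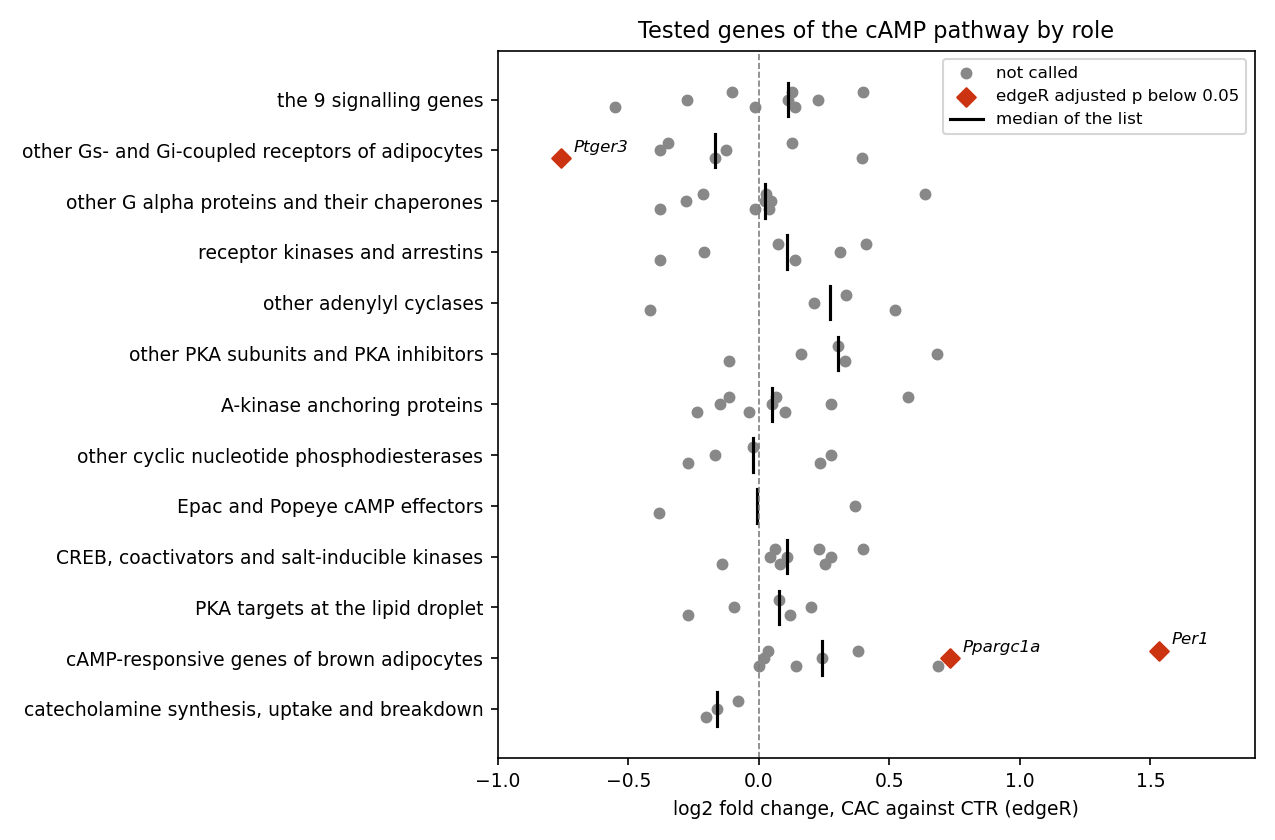
log2 fold change of CAC against CTR (horizontal axis, edgeR) of the tested genes of each pathway list and of the 9 signalling genes, with a bar at the median of each list and diamonds for genes with an adjusted p below 0.05. The 3 diamonds are Ptger3 at -0.76, Ppargc1a at 0.73 and Per1 at 1.53, and the medians of the lists lie between -0.17 and 0.30.

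Downstream of PKA, 9 of 12 genes of CREB, its coactivators and the salt-inducible kinases that restrain these coactivators were tested, 8 of them higher in mean, with 0 called and a median log2 fold change of 0.11. Crtc3, a CREB coactivator, had the smallest p. Its CAC libraries, at 12.2 to 17.4 CPM, lay above its CTR libraries, at 9.72 to 11.5 CPM, for a difference of 0.40 on the log2 scale (edgeR adjusted p = 0.399), and without CAC replicate 4 the difference was 0.26 (edgeR adjusted p = 0.685). Of the 5 proteins of the lipid droplet on which PKA acts directly or through its partners, all tested, 0 were called. Perilipin 1, encoded by Plin1, coats the droplet and gates its lipases. CTR averaged 664.3 ± 15.4 CPM (SD, n = 4) and CAC 549.5 ± 59.8 CPM, with every CAC library below every CTR library and a log2 fold change of -0.27 (unadjusted p = 0.00841 and adjusted p = 0.192 in edgeR's test). The lipases Lipe and Pnpla2 were at 1234 ± 50.2 and 2080 ± 67.4 CPM in CTR and at 1155 ± 100.2 and 2193 ± 113.5 CPM in CAC (edgeR adjusted p = 0.718 and 0.766).

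Of the 14 listed genes known to respond to cyclic AMP in brown adipocytes, 9 were tested, 2 rose and 7 did not pass. The 2 are 22.2% of those tested, against 0.739% of all genes tested called higher. The median log2 fold change of the 9 was 0.24. Per1 encodes a clock protein whose promoter is known to bind CREB. The time of day at which tissue was taken is not given in the sources used here. Its part in the Per1 values was not tested. Per1 was at 4.68, 6.92, 4.15 and 6.39 CPM in CTR and at 17.8, 16.0, 16.4 and 16.4 CPM in CAC. The CAC libraries lay close together and far above every CTR library, with a log2 fold change of 1.53 (SE 0.21, edgeR adjusted p = 3e-04), and Per1 was called in all 18 alternative settings.

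Ppargc1a, the coactivator of mitochondrial biogenesis, was at 43.9, 44.7, 52.3 and 66.4 CPM in CTR and at 106.5, 65.9, 91.1 and 82.3 CPM in CAC. CTR replicate 4 and CAC replicate 2 were nearly equal and the remaining libraries were separate. The log2 fold change was 0.73 (SE 0.15, edgeR adjusted p = 0.0201), but edgeR no longer called it (adjusted p = 0.0877, 0.0751 and 0.0875) without CTR replicate 1, CTR replicate 2 or CAC replicate 3. The other cyclic AMP-responsive genes had wide or small differences. Dio2, the deiodinase that makes active thyroid hormone, was at 77.7 ± 33.5 and 127.0 ± 22.5 CPM (edgeR adjusted p = 0.408). Without CTR replicate 4 it was called, at a log2 fold change of 1.02 in place of 0.69 (edgeR adjusted p = 0.00448). It was also called with the replicate numbers fitted as a block, at 0.76 (edgeR adjusted p = 0.0308). Ucp1, the uncoupling protein, was at 3965 ± 185.7 and 4059 ± 600.6 CPM (edgeR adjusted p = 0.935). Nr4a2, an orphan receptor induced by cyclic AMP, was at 28.6 ± 7.43 and 38.4 ± 20.9 CPM (edgeR adjusted p = 0.754). The rest of the list did not reach the filter. There Nr4a1 averaged 4.58 CPM in CTR and 2.67 CPM in CAC, Fos 1.85 and 1.03, and Fgf21 0.09 and 0. Higher means in CAC were found for Nr4a3, at 1.14 and 2.63 CPM, and Bmp8b, at 0.07 and 0.34 CPM.

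**Figure D4:**
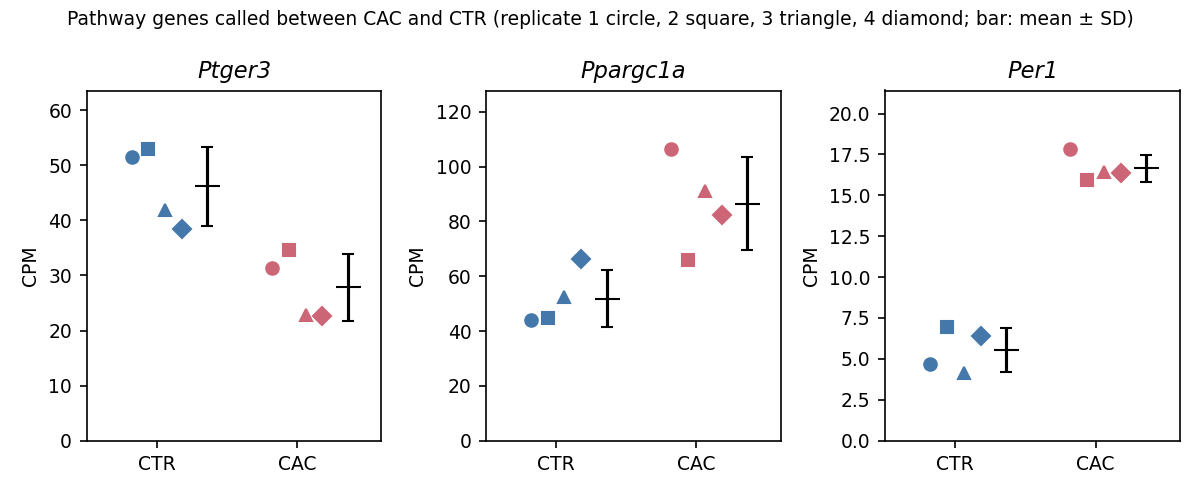
CPM (vertical axis, from 0) of the 3 pathway genes called between CAC and CTR in each library, with the mean ± SD (n = 4) as a bar. Ptger3 is lower in every CAC library (22.7 to 34.6 CPM) than in any CTR library, Per1 is higher (16.0 to 17.8 CPM), and Ppargc1a overlaps at about 66 CPM.

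The supply side of the signal was mostly below the depth of these libraries. Markers of sympathetic neurons summed to 0.36 to 1.33 CPM in CTR and 0.697 to 2.66 CPM in CAC, and Dbh, Npy and Prph had 0 counts throughout. The cell bodies of these neurons are known to lie in ganglia outside the tissue. Of 9 genes of catecholamine synthesis, uptake and breakdown, 3 were tested, all 3 were lower in mean and 0 were called. Maob, which oxidises amines, was at 55.9 ± 2.64 and 49.4 ± 11.8 CPM (edgeR adjusted p = 0.681), and Slc22a3, a transporter of extraneuronal uptake, at 47.9 ± 6.78 and 44.8 ± 3.90 CPM (edgeR adjusted p = 0.853).

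CREB is known to bind the palindrome TGACGTCA and its half-site TGACG, which reads CGTCA on the other strand. The 250 bases before the start of each RefSeq transcript (GRCm38.p6) were searched for both, on both strands. Promoter windows were found for 6 of the 9 signalling genes, in 12 windows, of which 0 held the palindrome and 5, from Adrb1, Prkaca and Gnas, held a half-site. Of these 5 windows, 3 belong to Gnas, 2 of them overlap and hold the same site, and all 3 contain exonic bases. Among all 32851 windows, 1.55% held the palindrome and 17.8% a half-site. A window each of Adrb1 and Prkaca, the signalling genes with the smallest p, and of Per1, the gene with the smallest p in the pathway, are printed 5′ to 3′ on the plus strand, with half-sites in capitals. They lie at chr19:56721867-56722116, chr8:83972728-83972977 and chr11:69099902-69100151.
Adrb1: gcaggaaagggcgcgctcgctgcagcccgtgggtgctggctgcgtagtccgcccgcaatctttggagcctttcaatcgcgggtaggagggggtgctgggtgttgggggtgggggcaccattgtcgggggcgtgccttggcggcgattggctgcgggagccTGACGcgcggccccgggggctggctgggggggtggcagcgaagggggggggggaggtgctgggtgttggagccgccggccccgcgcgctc
Prkaca: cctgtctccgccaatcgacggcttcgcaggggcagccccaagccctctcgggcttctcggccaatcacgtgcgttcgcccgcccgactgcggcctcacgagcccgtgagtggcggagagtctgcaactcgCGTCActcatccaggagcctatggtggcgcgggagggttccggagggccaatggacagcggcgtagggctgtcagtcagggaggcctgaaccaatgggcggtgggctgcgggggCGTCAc
Per1: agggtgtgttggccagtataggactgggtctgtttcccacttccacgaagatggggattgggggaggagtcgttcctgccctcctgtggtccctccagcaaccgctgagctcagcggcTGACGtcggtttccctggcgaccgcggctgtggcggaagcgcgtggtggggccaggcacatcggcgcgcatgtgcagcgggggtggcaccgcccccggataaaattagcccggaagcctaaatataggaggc
The half-site begins 90 bases before the transcript start in Adrb1, 120 and 6 bases before it in Prkaca and 132 bases before it in Per1. A further window of Prkaca held no half-site, and a further window of Per1 held one 246 bases before its start. Of the other called pathway genes, Ptger3 had a window with no half-site and no palindrome. The window of Ppargc1a held a half-site 49 bases before its start and no palindrome. A match is a description of the sequence and not a measured binding site.

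Genes with the most similar pattern were sought by Pearson's r of log2 CPM over the 8 libraries among 4128 or 4129 tested genes of at least 20 CPM. With so many candidates and libraries of differing depth, the values are given as a description. Prkaca was most like ENSMUSG00000120736 (r = 0.991), which has nearly the same count, and Epas1 (r = 0.951), which encodes the hypoxia-inducible factor HIF-2α. Gnas was most like Babam1 (r = 0.985) and Gm20721 (r = 0.982), the overlapping gene named above. Pde3b was most like Crebrf (r = 0.977) and 2900060B14Rik (r = 0.964), and Prkar2b most like Abcd3 (r = 0.973), a peroxisomal transporter, and Nfe2l1 (r = 0.966). Adcy3 was followed by Arhgef12 (r = 0.971) and Rps12-ps16 (r = 0.965), and Adrb1 by Rasl12 and Gm36423 (r = 0.951 for both). For Adrb3 the nearest were Smarcc2 (r = 0.933) and Rtl8b (r = 0.914), for Adra1a St3gal5 (r = 0.939) and Ramp2 (r = 0.916), and for Pde4d Chkb (r = 0.934) and G3bp2 (r = 0.920). None of these 18 neighbours was called between CAC and CTR, their edgeR adjusted p-values running from 0.180 upward, and no member of the chain was among them.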

How the data were processed

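From each of 4 CTR and 4 CAC mice, 1 library of BAT RNA was sequenced, so p-values measure the spread between mice. Per the labels, the authors checked reads with FastQC 0.11.9, aligned them to mm10 with HISAT2 2.2.1 and used featureCounts, set to keep multi-mapping reads, for counting. The table deposited holds expected counts, reads per gene with fractions (25.1% to 28.4% of nonzero values are not whole), which were rounded here. A deposited signal table, made by the authors by dividing counts by DESeq2 size factors, served as an alternative only.

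Counts were filtered with filterByExpr, normalized by TMM and tested with edgeR 4.0.16 in R 4.3.3 (robust quasi-likelihood test, no covariate, Benjamini-Hochberg adjustment over 9876 genes, threshold 0.05). CPM uses TMM-scaled library sizes. Exact two-sided permutation tests used all 70 assignments of the libraries. On simulated data of this design the test found 70 of 95 genes with a log2 change of 1 and 96 of 96 with a change of 2, and called 10 of 9437 genes simulated without change. Gene IDs matched GENCODE M21 (GRCm38) for 91.4% without version and for all 9 signalling genes. Promoters are RefSeq sequences.

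The signalling genes and the pathway and marker lists were chosen with earlier results of these data known. Named genes are the 9, every called gene of a pathway list or otherwise its gene of smallest p, and the 2 genes most like each of the 9. Adora1, Hcar1, Prkacb, Prkar1a, Lipe, Pnpla2, Dio2, Ucp1, Nr4a2, Maob and Slc22a3 were named after their values were seen. A gene that the rule names is not reported here. Alternatives were DESeq2 1.42.0, RLE, upper quartile and library size scaling, mitochondrial genes left out, no filter, a minimum of 10 counts per library, a replicate block, decimals cut off, limma 3.58.1 (limma-trend) on log2 of the deposited signal plus 1, and each library left out. Plots were made with matplotlib 3.10.9.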

Additional observations from a re-analysis of the deposited data

Results flagged for a closer look

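Adrb3 in CAC replicate 1 was at 103.2 CPM, while the other CAC libraries were at 158.8 to 169.4 CPM. It was singled out because its gap to the nearest library exceeds Dixon's 95% critical value for 4 samples. In the 18 groups of values examined, that is the 9 genes in CTR and in CAC, chance alone gives 0.9 such cases on average. Without this library the log2 fold change of Adrb3 was 0.28 in place of 0.14 (edgeR adjusted p = 0.302), while without CTR replicate 3 it was 0.04 (edgeR adjusted p = 0.958), and the gene was called in none of these 3 fits.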

How the results depend on the processing

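Of the 18 alternative settings, 15 called 0 of the 9 signalling genes and 3 called 1, always Adrb1: with no filter (adjusted p = 0.00287), with the replicate block (log2 fold change -0.54, adjusted p = 0.0459) and without CTR replicate 4 (adjusted p = 0.0282, all in edgeR). Leaving out each library in turn thus gave 0 to 1 called signalling genes, 1 to 4 called pathway genes in place of 3, and 42 (without CTR replicate 1) to 135 (without CTR replicate 3) genes called in all in place of 92, with 60 without CAC replicate 3. Over all genes, 351 were called with no filter and 140 with the replicate block. The cause was not tested. Among the 9 genes the sign turned for Gnas, whose log2 fold change ran from -0.10 to 0.06 with 1 library left out (0.0551 without CTR replicate 1, 0.0509 without CAC replicate 1, 0.0028 without CAC replicate 3 and 0.0025 without CAC replicate 4), and for Pde4d, from -0.03 to 0.27 (-0.0278 without CAC replicate 4), and for none of the other 7. Among the further pathway genes named, it turned for Nr4a2 (-0.0326 to 0.554 with 1 library left out, negative without CAC replicate 1), Ucp1 (-0.0672 to 0.0944, negative without CAC replicate 1) and Slc22a3 (-0.142 to 0.00749, positive without CTR replicate 3). Pkia was also called with no filter and without CTR replicate 3, and Dio2 with the replicate block (adjusted p = 0.0308) and without CTR replicate 4. For Adora1, Hcar1, Prkacb, Prkar1a, Lipe, Maob and Pde8a leaving out 1 library moved the log2 fold change by over 1.5 times with no call and no change of sign. Correlations between libraries with the same replicate number (-0.0231 to 0.0355) lay within the range of those with different numbers (-0.0529 to 0.0359). Of 8 libraries, 4 correlated best with their own number. All these correlations were small, so the numbers were not taken to pair the mice.

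Pde4d had 16 to 67 counts per library, and its interval spans -19.6% to 47.9%. The part of depth in the width of this interval was not tested. For Gnas, Prkaca and Adcy3 another gene had a similar count in every library, and no alternative here separates them.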
